A study of Mus musculus with 12 samples.

Results

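The miRs of the miR-379/410 cluster were described in fetal mouse liver, where they took 7.56% to 9.79% of all miR counts of a library. Members were every entry of the count table whose miR number, with letter suffix and arm ignored, is among the 34 numbers of the cluster. This gave 72 of the 1927 entries. miR-666, whose gene lies in the same stretch of the chromosome, is not among these numbers and was counted as outside the cluster. The libraries came from E18.5 livers of female fetuses, 5 wild-type (WT) littermates and 7 Mir483Pat-KO fetuses, with 1 library per fetus. Mir483Pat-KO fetuses inherited from the father an allele from which Cre recombinase had removed *Mir483*, a miR gene inside the paternally expressed *Igf2*. The allele was made in C57BL/6N embryonic stem cells, from independent clones, and was carried on a C57BL/6J background. Every cell that inherits it carries it, so the deletion is not limited to the liver. The labels give no litter or clone for a fetus.

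miRs are short RNAs cut from hairpins in longer transcripts. Each hairpin yields a 5p and a 3p arm, and an arm loaded into an Argonaute protein lowers the mRNAs that pair with its seed, bases 2 to 8. The miR-379/410 cluster lies in the imprinted *Dlk1*-*Dio3* domain, downstream of *Meg3*, *Rian* and the miRs antisense to *Rtl1*, and is expressed from the maternal chromosome as part of long RNAs that include *Mirg*, whose name stands for miR-containing gene. It is best known in the brain, where miR-134 acts in dendrites. Newborn mice that lack it fail to keep up their blood glucose. *Mir483* lies in a different imprinted domain and is expressed from the paternal chromosome.

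Of the cluster's hairpins, only miR-154 had a ratio of its arms called as differing between the genotypes, and that call depended on the setting. The sequences below are of the 6 members with the highest levels, of miR-379-5p, which is related to miR-411-5p, and of both arms of miR-154. They are RefSeq mature sequences of GRCm38.p6, written 5′ to 3′ with the seed in capitals.
miR-411-5p: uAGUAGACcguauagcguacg
miR-379-5p: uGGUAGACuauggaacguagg
miR-541-5p: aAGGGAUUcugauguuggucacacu
miR-410-3p: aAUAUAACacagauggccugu
miR-409-3p: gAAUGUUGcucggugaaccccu
miR-300-3p: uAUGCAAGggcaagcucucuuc
miR-381-3p: uAUACAAGggcaagcucucugu
miR-154-5p: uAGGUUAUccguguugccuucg
miR-154-3p: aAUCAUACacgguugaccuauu
miR-300-3p and miR-381-3p differed at 3 of 22 bases, A4G, G21U and U22C with miR-381-3p given first and positions counted from the 5′ end, so that their seeds differed at 1 base. miR-411-5p and miR-379-5p differed at 7 of 21 bases, of which A2G lay in the seed, with miR-411-5p given first. A RefSeq sequence was found for 68 of the 72 entries. The entries without one were miR-376c-3p, miR-485-5p, miR-487b-3p and miR-539-3p.

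The hairpin genes that could be placed, 37 in all, lie at chr12:109709060-109743795 in GRCm38, a span of 34736 bases from *Mir379* to *Mir410*. All but 1 are on the plus strand. The exception, *Mir299b*, lies opposite *Mir299a*, and the table counts both in shared entries, miR-299a-5p/299b-5p and miR-299a-3p/299b-3p, so the strands cannot be told apart. In GENCODE's annotation 24 of the genes lie upstream of *Mirg* (chr12:109729764-109749460, plus strand) and 13 within it, of which 8 overlap an exon of at least 1 *Mirg* transcript. *Mir154* (chr12:109738433-109738498) is intronic in the 8 *Mirg* transcripts that span it. 1 entry that the rule takes, miR-496b, belongs to a gene on another chromosome (chr19:16314892-16315004, minus strand) and had no count.

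Of the 72 entries, 63 had a count and 47 had one in every library. The 9 with no count were miR-1197-5p, miR-376c-5p, miR-453, miR-496b, miR-541-3p, miR-654-3p, miR-654-5p, miR-668-5p and miR-758-5p. Total counts lay between 658665 and 1211160 per library. At these depths a count of 0 allows a level of up to 2.58 to 4.68 CPM in a library, by counting error only. CPM are counts scaled to the same library total, here with factors from the trimmed mean of M values (TMM). The sequenced members are 18 to 25 bases long. How evenly the libraries captured different miRs, or the arms of a hairpin, was not measured. Levels and arm shares are therefore those of reads. edgeR's filter on low counts kept 49 members, which held at least 99.904% of the members' counts in every library.

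Levels differed by 2371-fold between the highest and the lowest of the 49 members. 8 members had a mean of at least 1000 CPM over the 12 libraries, 27 lay between 100 and 1000 CPM, 14 between 10 and 100 CPM, and the 14 others with a count lay under 10 CPM. miR-411-5p was the most abundant, with 26087 CPM on average and 22106 to 30200 CPM over the libraries. It gave 28.9% of the members' summed CPM, was above every other member in 12 of 12 libraries, and ranked 7 in the whole table. miR-541-5p, with 12238 CPM, and miR-410-3p, with 12042 CPM, followed. Their order differed between the genotypes, miR-541-5p being the higher in 0 of 5 WT libraries and in 6 of 7 Mir483Pat-KO libraries, and this difference was not tested. miR-409-3p had 9500 CPM. miR-300-3p, with 8465 CPM, was above miR-381-3p, with 7831 CPM, in 5 of 5 WT and 5 of 7 Mir483Pat-KO libraries. miR-380-3p had 2317 CPM and miR-369-3p 1724 CPM. miR-495-3p, at 800 CPM, and miR-382-5p, at 729 CPM, were also close, with miR-495-3p the higher in 2 of 5 WT and 6 of 7 Mir483Pat-KO libraries. The 7 highest members together held 87.0% of the members' CPM and the 10 highest held 90.6%.

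**Figure D1:**
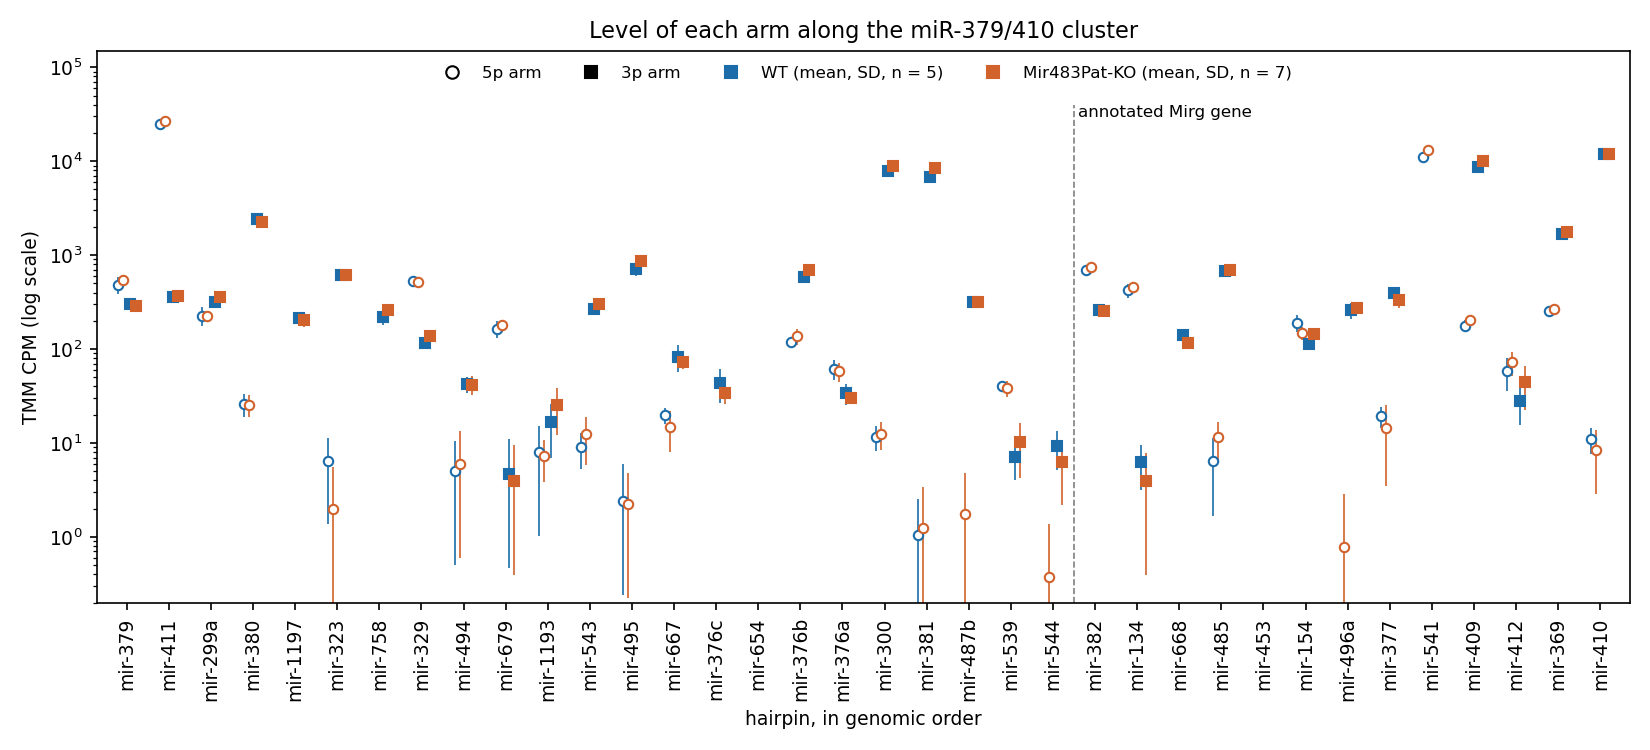
TMM CPM (log scale) of the 5p arm (circles) and the 3p arm (squares) of each hairpin in genomic order, as mean and SD of WT (blue, n = 5) and Mir483Pat-KO (orange, n = 7); means of 0 are not drawn and the dashed line marks the start of the annotated *Mirg* gene. Genotype means run from 26859 CPM for miR-411-5p in Mir483Pat-KO to under 10 CPM. High and low hairpins lie side by side, and blue and orange points of a member mostly coincide.

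Levels did not follow position. Members upstream of *Mirg* gave 56.5% of the summed CPM and those within it 43.5%. The last 5 hairpin genes, *Mir541*, *Mir409*, *Mir412*, *Mir369* and *Mir410*, lie within 1387 bases. Their summed levels still ran from 104 CPM for miR-412 to 12238 CPM for miR-541, a 117-fold range. miR-379 and miR-411, the first and second genes, also differed widely, miR-379-5p having 517 CPM and miR-411-5p 26087 CPM.

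The sequenced members held 63 distinct seeds. Shared seeds joined few of them, and none of the 10 most abundant members shared its seed with another sequenced member. The entries without a sequence could not be compared. miR-379-3p, at 295 CPM, and miR-411-3p, at 364 CPM, share the seed AUGUAAC and differ at 2 of 22 bases, C10U and C22U with miR-411-3p given first. miR-379-5p shares GGUAGAC with miR-1193-5p, which had 7.62 CPM. miR-376b-5p, at 130 CPM, shares UGGAUAU with miR-376c-5p, which had no count. miR-410-5p, at 9.46 CPM, shares GGUUGUC with miR-494-5p, at 5.55 CPM. miR-496a-5p, at 0.453 CPM, shares GGUUGCC with miR-453, and miR-1197-5p shares GGUUGAC with miR-758-5p. Only miR-496a-5p of these had a count. Among tested miRs outside the cluster, miR-370-5p has the seed of miR-1193-3p and miR-1983 has that of miR-412-3p. Seeds that differ at 1 base joined more abundant members, as in miR-300-3p and miR-381-3p, miR-379-5p and miR-411-5p, miR-154-3p and miR-369-3p, and miR-410-3p and both miR-379-3p and miR-411-3p.

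A feature past the seed recurred in the 3p arms. The letters GGU stood at bases 11 to 13 in 11 of the 32 sequenced 3p members (34.4%) and in 0 of the 34 5p members. Both sets include members that were not tested, unlike the set outside the cluster that follows. Of the 139 tested 3p miRs outside the cluster with a sequence, 2 (1.44%) had them there, and 1 of these was miR-341-3p, of the same imprinted domain. The sequences of 6 of these 11 members, which have different seeds, follow with the GGU in capitals. The letters were searched on the mature strand only and were chosen after the sequences had been seen.
miR-380-3p: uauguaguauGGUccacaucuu
miR-369-3p: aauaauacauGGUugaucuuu
miR-495-3p: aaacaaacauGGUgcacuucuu
miR-323-3p: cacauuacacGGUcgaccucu
miR-411-3p: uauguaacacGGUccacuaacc
miR-154-3p: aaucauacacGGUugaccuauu
The first base was no such feature. Of the 47 tested members with a sequence, 46.8% began with U, against 43.5% of all tested miRs with one.

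The arm that gave most reads differed from hairpin to hairpin. Of the 33 hairpins of the cluster with at least 120 counts over the 12 libraries, the 3p arm was the higher in 22 (66.7%) and the 5p arm in 11. Of the 171 other hairpins of the table with that many counts, the 3p arm was the higher in 80 (46.8%). miR-541 gave 123408 reads from its 5p arm and 0 from its 3p arm. miR-410, on the same 1387 bases, gave 122097 from its 3p arm and 97 from its 5p arm. miR-381 gave 78841 3p reads and 12 5p reads. Among the 16 hairpins with both arms tested, the log2 ratio of the 5p to the 3p arm was highest in miR-411, at 6.16, followed by miR-329 (2.01), miR-382 (1.51) and miR-412 (0.89). It was lowest in miR-300, at −9.23, followed by miR-380 (−6.40), miR-409 (−5.62) and miR-543 (−4.62). The arms were closest to equal in miR-154 (0.31), miR-299a/299b (−0.59) and miR-379 (0.80). The related hairpins miR-411 and miR-379 both gave more reads from the 5p arm, with shares of 98.6% and 63.3%, and miR-300 and miR-381 both gave nearly all from the 3p arm.

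**Figure D2:**
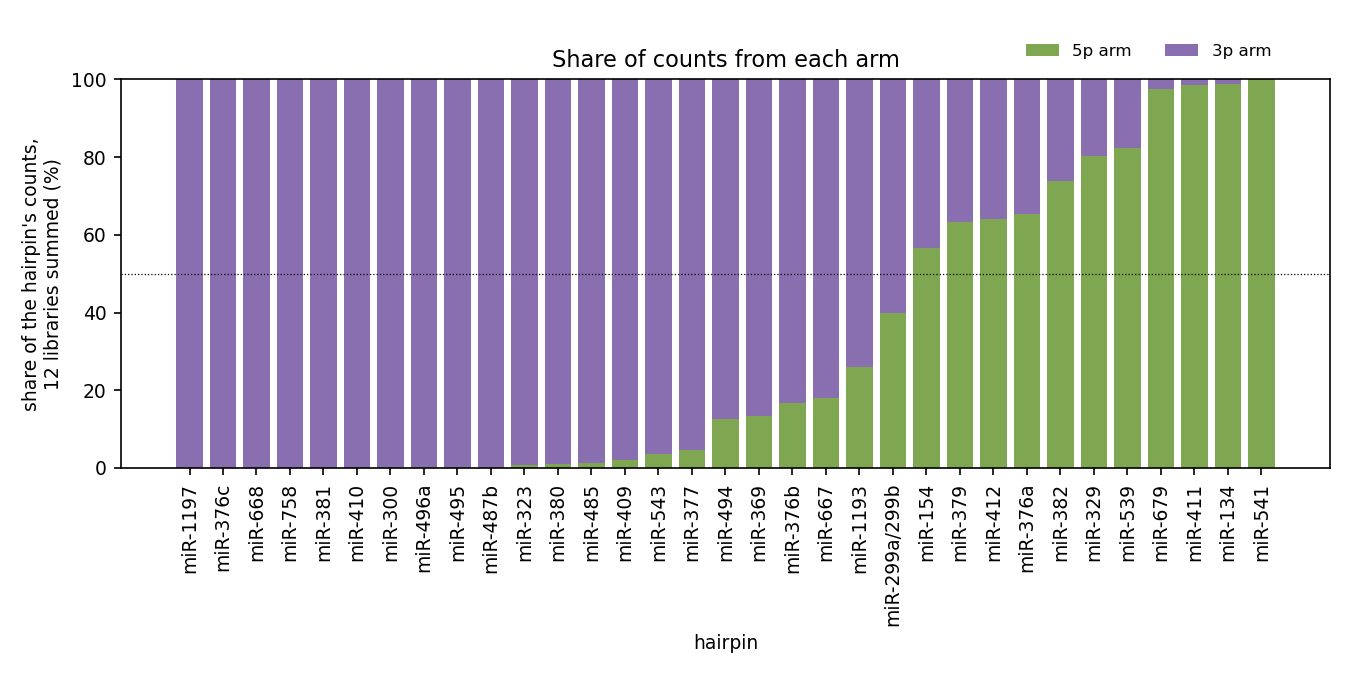
Share of each hairpin's counts (percent, 12 libraries summed) that came from the 5p arm (green) and the 3p arm (purple), for the 33 hairpins with at least 120 counts, ordered by the 5p share. The 3p arm is the higher in 22 hairpins, and miR-154, at 56.7% from the 5p arm, stands nearest to equal shares.

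The genotypes were compared to ask whether the loss of *Mir483* goes with a change in the cluster. The deleted gene followed the labels, with 985 to 1238 CPM of miR-483-3p in WT libraries and 0 to 25.0 CPM in Mir483Pat-KO libraries, and 268 to 329 CPM against 0 to 5.26 CPM of miR-483-5p. The summed CPM of the cluster was 85195 ± 3867 (SD, n = 5) in WT and 93790 ± 5579 (n = 7) in Mir483Pat-KO, a log2 ratio of 0.14 between the means. The WT sums lay between 78645 and 88168 CPM and the Mir483Pat-KO sums between 84945 and 102100 CPM, so the groups overlapped. In whole tissue, fewer cells of a type and less RNA per cell cannot be told apart.

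By edgeR's quasi-likelihood test 1 of the 49 members was called at an adjusted p under 0.05, against 8 of the 388 miRs tested (2.06%). It was miR-154-3p, which was higher in Mir483Pat-KO, and none was called lower. At an adjusted p under 0.1 miR-381-3p and miR-541-5p were added, which made 3 of the 49, against 4.64% of all miRs tested. Before adjustment 10 members had a p under 0.05, 8 of them higher and 2 lower, which is 20.4% of the members, beside 17.5% of all tested miRs. The log2 fold changes of the members lay between −0.41 and 0.67, with a median of 0.075, beside a median of 0.0028 over all miRs tested. They were above 0 for 30 members (61.2%) and below 0 for 19, beside 50.3% above 0 among all miRs tested. The median standard error over the members was 0.10. The 95% interval lay within ±0.5 for 34 members and within ±1 for 44. Among the 38 members with a mean of at least 50 CPM, 26 were above 0.

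**Figure D3:**
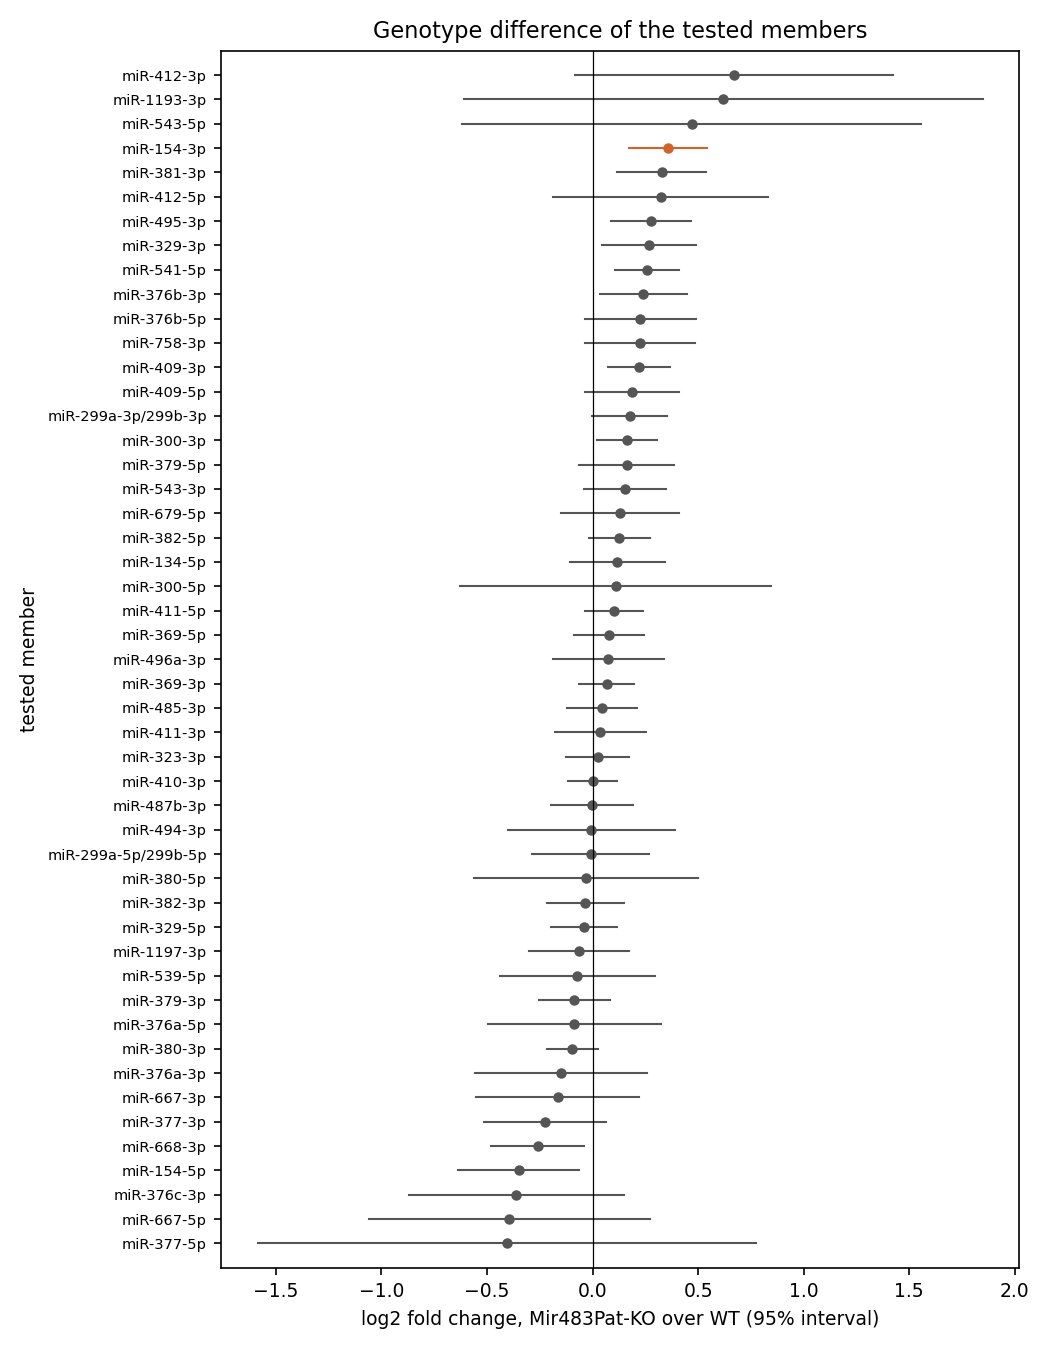
log2 fold change between Mir483Pat-KO (n = 7) and WT (n = 5) of the 49 tested members, with the 95% interval from edgeR's quasi-likelihood fit; orange marks the member called. Estimates run from −0.41 to 0.67, only miR-154-3p was called, and the widest intervals belong to members of low level.

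miR-154-3p had 108, 119, 118, 107 and 116 CPM in the 5 WT libraries, and 131 CPM at the lowest, 147 CPM at the median and 164 CPM at the highest in the 7 Mir483Pat-KO libraries. All Mir483Pat-KO values were above all WT values, which was so for no other member and held in either direction for 2.84% of all miRs tested. The means were 114 ± 5.80 CPM (SD, n = 5) and 145 ± 12.3 CPM (n = 7), a log2 fold change of 0.36 (SE 0.087, adjusted p = 0.0426, edgeR). The call depended on the setting. Each library's label ends in a number, which was taken to be that of the animal, although the labels do not say so. The libraries were split at a gap in these numbers into a lower and an upper range. The labels do not state such ranges, and what they stand for is not known. The fold change was 0.32 with the animal-number range as a factor (adjusted p = 0.0774, edgeR). It was 0.26 in the 4 WT and 4 Mir483Pat-KO fetuses of the lower range alone (adjusted p = 0.498). The upper range holds 1 WT fetus and was not tested. With 1 library left out it lay between 0.32 and 0.37. It was called without replicate 2 or 3 of Mir483Pat-KO and not without any of the 10 other libraries.

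The other arm of the hairpin had its values in the opposite order. miR-154-5p had 173, 233, 169, 149 and 231 CPM in WT, and 109 CPM at the lowest, 153 CPM at the median and 178 CPM at the highest in Mir483Pat-KO. These ranges overlapped, and the log2 fold change of −0.35 (SE 0.13) was not called (adjusted p = 0.191, edgeR). The log2 ratio of miR-154-5p to miR-154-3p was 0.66, 0.95, 0.51, 0.47 and 0.98 in WT. In Mir483Pat-KO it was 0.014, −0.26, 0.37, 0.064, −0.15, 0.23 and −0.085. Every WT fetus thus had more 5p than 3p reads, while in Mir483Pat-KO the arms were near equal. The groups did not overlap, which was so for 3 of the 97 hairpins tested in the whole table (3.09%), the others being miR-21a and miR-30a.

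The mean ratios were 0.71 ± 0.24 (SD, n = 5) and 0.025 ± 0.22 (n = 7), a difference of −0.69 between Mir483Pat-KO and WT (SE 0.14, 95% interval −0.98 to −0.39, adjusted p = 0.0273, limma). Of the 97 hairpins with both arms tested in the whole table, miR-154 was the only one called (1.03%), and it is 1 of 16 of the cluster. The ratio compares arms of 1 hairpin and so does not depend on how libraries are scaled. It rests on 70 to 229 counts of miR-154-5p and 84 to 134 counts of miR-154-3p per library. The difference was −0.60 in the lower animal-number range alone (adjusted p = 0.221) and −0.74 with the library index as a covariate (adjusted p = 0.687, 95% interval −1.34 to −0.13). With 1 library left out it lay between −0.75 and −0.62. The call was lost without WT replicate 1, 2 or 5 and without Mir483Pat-KO replicate 1, 2, 5 or 7, with an adjusted p of 0.113 at the highest, and held in the 5 other fits.

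**Figure D4:**
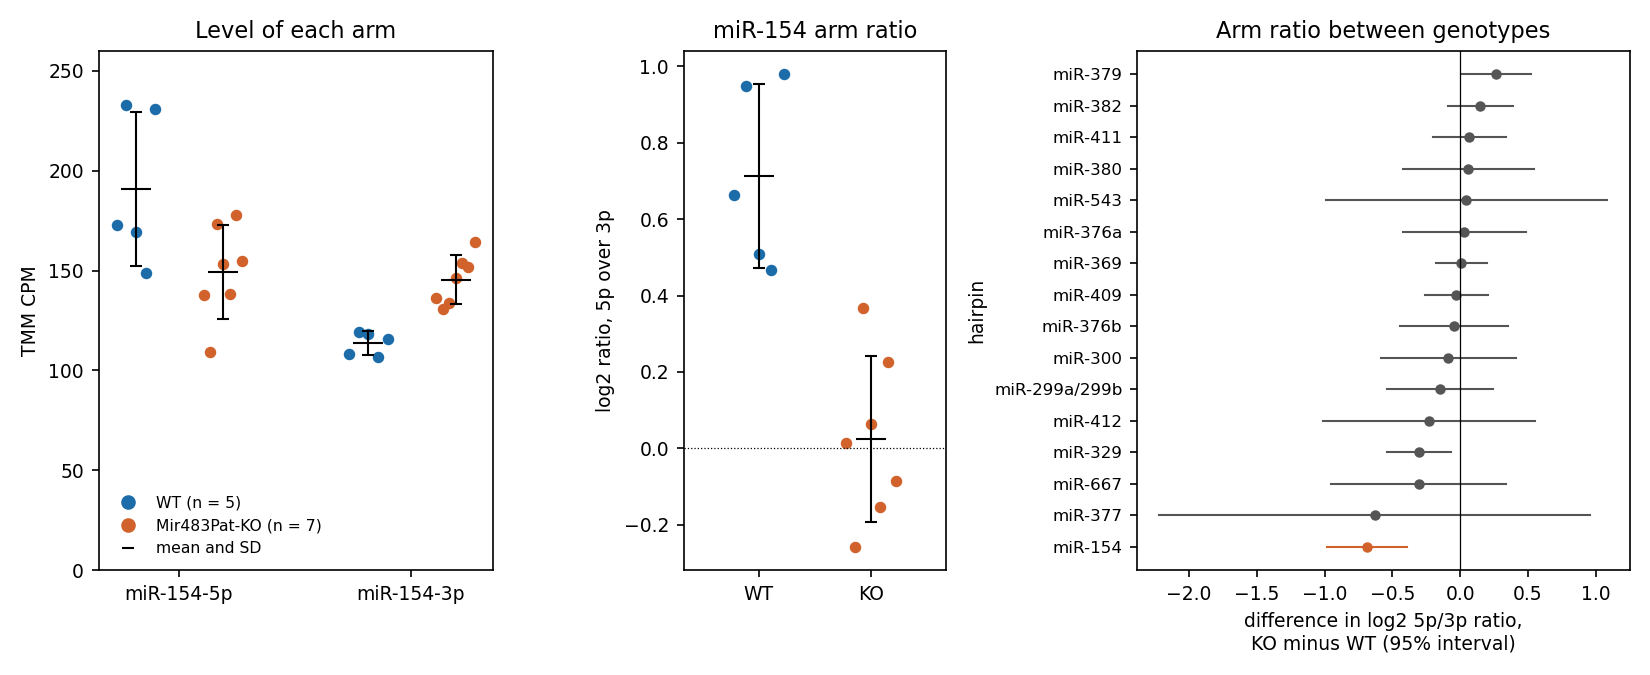
Left, TMM CPM of miR-154-5p and miR-154-3p in each fetus; middle, log2 ratio of the arms in each fetus, with mean and SD of WT (blue, n = 5) and Mir483Pat-KO (orange, n = 7); right, difference in the log2 ratio between genotypes with its 95% interval (limma) for the 16 hairpins of the cluster, miR-154 in orange. WT ratios lie between 0.47 and 0.98 and Mir483Pat-KO ratios between −0.26 and 0.37.

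The other 15 hairpins had arm ratios that were not called. miR-329 had a difference of −0.30 (SE 0.11, adjusted p = 0.139, limma) and miR-379 one of 0.26 (SE 0.12, adjusted p = 0.273). These came next in order of p within the cluster, and their groups overlapped. In miR-411 the difference was 0.068 with a 95% interval of −0.20 to 0.34, and in miR-409 it was −0.029 with an interval of −0.26 to 0.20. For miR-543, whose 5p arm had 111 reads in all and 0 in Mir483Pat-KO replicate 1, the interval was −0.99 to 1.08. Differences of either direction within that range were not excluded.

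Several of the abundant members had log2 fold changes between −0.096 and 0.13. miR-411-5p had 23963, 25824, 26749, 26391 and 22106 CPM in WT, and 24298 CPM at the lowest, 26257 CPM at the median and 30200 CPM at the highest in Mir483Pat-KO. The ranges overlapped for the most part, and the log2 fold change was 0.10 (SE 0.064, adjusted p = 0.468, edgeR). miR-410-3p, at the other end of the cluster, averaged 12038 ± 935 CPM (SD, n = 5) over WT fetuses and 12046 ± 383 CPM (n = 7) over Mir483Pat-KO fetuses. Its log2 fold change of 0.0011 had a 95% interval of −0.12 to 0.12. miR-380-3p had one of −0.096 (interval −0.22 to 0.026), miR-369-3p one of 0.066 (−0.063 to 0.20) and miR-382-5p one of 0.13 (−0.017 to 0.27).

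Other abundant members had log2 fold changes between 0.16 and 0.33, also without being called. This grouping is by size only and was not tested. miR-541-5p had 9994, 10581, 11589, 11082 and 11642 CPM in WT, and 11335 CPM at the lowest, 13296 CPM at the median and 15349 CPM at the highest in Mir483Pat-KO. Only 1 Mir483Pat-KO library lay within the WT range, and the log2 fold change was 0.26 (SE 0.071, adjusted p = 0.0737, edgeR). miR-381-3p had 6196, 6188, 6790, 7482 and 7425 CPM in WT and 6934, 6894, 8247, 8620, 9182, 9727 and 10282 CPM in Mir483Pat-KO. Replicates 1 and 2 of Mir483Pat-KO lay within the WT range and the other 5 above it, with a log2 fold change of 0.33 (SE 0.10, adjusted p = 0.0988). miR-409-3p and miR-300-3p had the same division, their 5 other Mir483Pat-KO libraries lying at 9939 to 11148 CPM and 8686 to 9763 CPM, above WT ranges of 8187 to 9330 CPM and 7157 to 8212 CPM. Their log2 fold changes were 0.22 (adjusted p = 0.113) and 0.16 (adjusted p = 0.191). miR-495-3p averaged 712 ± 107 CPM (SD, n = 5) over WT fetuses and 862 ± 59.0 CPM (n = 7) over Mir483Pat-KO fetuses, a log2 fold change of 0.28 (adjusted p = 0.115, edgeR).

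These values also moved with the library index. It is 37 to 41 for the WT libraries and 42 to 48 for those of Mir483Pat-KO, so index and genotype cannot be told apart between the groups. Within each genotype the index rises together with the replicate number and the animal number, so these cannot be told apart either. With the index as a linear covariate the log2 fold change turned to −0.26 for miR-381-3p, −0.12 for miR-409-3p, −0.16 for miR-300-3p and −0.060 for miR-541-5p, and the median over the members turned to −0.068. That of miR-154-3p fell to 0.12 (adjusted p = 0.980, edgeR). DESeq2's test called 5 of the 49 members, all higher, and 26 of all 388 miRs (6.70%). The 5 were miR-154-3p, miR-381-3p, miR-409-3p, miR-495-3p and miR-541-5p. Both totals include miRs that could not be called because DESeq2 gave them no adjusted p, such as miR-412-5p.

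Among the less abundant members with a mean of at least 50 CPM, miR-412-5p (0.32) and miR-329-3p (0.27) had the highest log2 fold changes after miR-154-3p, and miR-668-3p (−0.26), miR-377-3p (−0.22) and miR-667-3p (−0.17) the lowest after miR-154-5p. None of these 5 was called. miR-412-5p had 49.0, 49.4, 52.4, 42.8 and 98.7 CPM in WT, and 46.3, 40.5, 77.6, 82.7, 77.6, 91.7 and 93.7 CPM in Mir483Pat-KO. WT replicate 5 thus had the highest value of all, and without it the log2 fold change was 0.60 and still not called. The 14 members with a count that were not tested lay under 10 CPM on average, and 13 of them were at 0 in at least 1 library.

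Libraries differed in how high the cluster stood. WT replicate 1, the deepest library, had the lowest sum, 78645 CPM, and 10 of the 49 tested members above their genotype's mean. Replicate 6 of Mir483Pat-KO had the highest sum, 102100 CPM, and 36 members above it. Within a genotype the members varied by a median SD of 0.158 on the log2 scale, for the 38 with a mean of at least 50 CPM, beside 0.166 for all 237 miRs of that level.

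**Figure D5:**
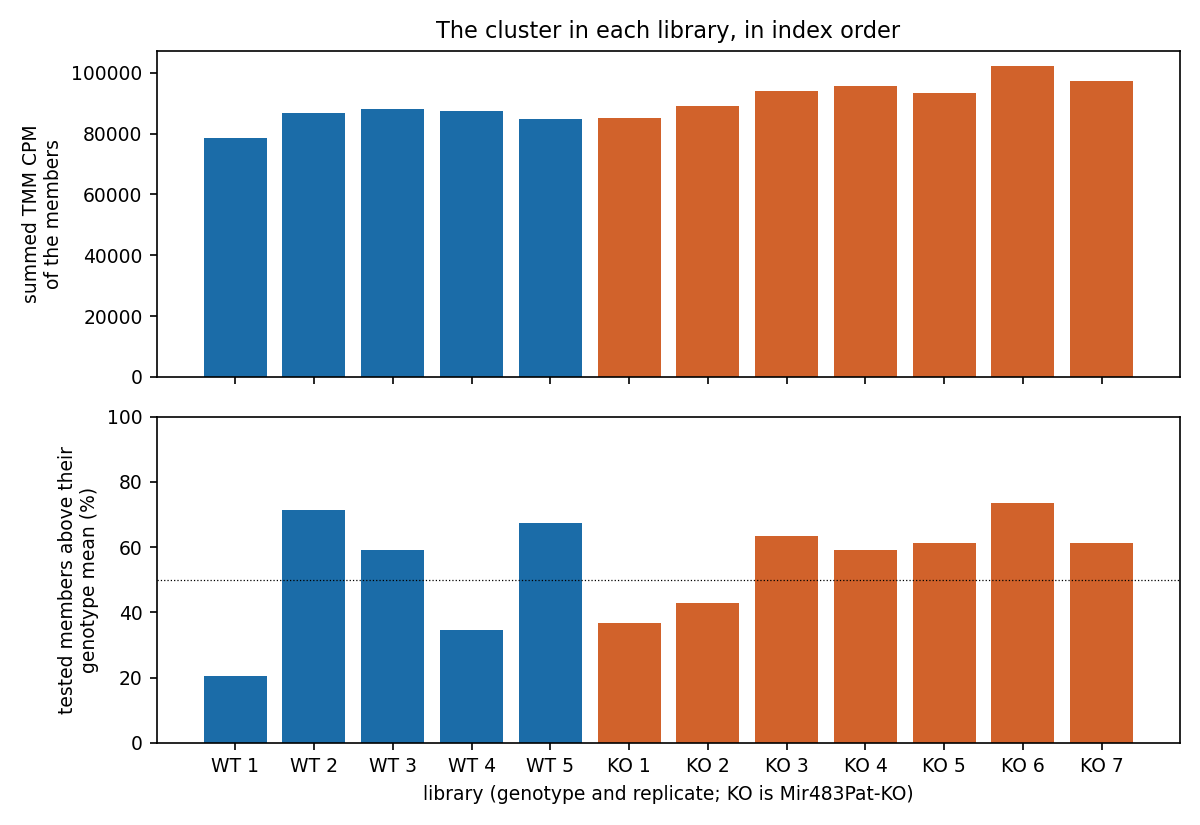
Summed TMM CPM of the members (top) and the percent of the 49 tested members above their genotype's mean (bottom) in each library, WT in blue and Mir483Pat-KO (KO) in orange, in the order of the library index. Sums lie between 78645 and 102100 CPM, and the lowest sum and the lowest percent belong to WT replicate 1.

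The hepatocyte markers summed to 171446 to 199657 CPM in WT and 163814 to 212750 CPM in Mir483Pat-KO. Those of red cells, which the fetal liver makes, summed to 11552 to 15149 CPM and 11692 to 18066 CPM, and those of white cells to 11043 to 14595 CPM and 13119 to 14759 CPM. Stellate or other mesenchymal cell markers summed to 30356 to 34341 CPM and 31140 to 36250 CPM, and endothelial cell markers to 953 to 1261 CPM and 725 to 1221 CPM. All ranges overlapped and 0 of the 16 tested markers was called, beside 2.06% of all miRs tested. The 3 red cell markers and the 3 tested white cell markers all had log2 fold changes above 0, with medians of 0.13 and 0.14, both endothelial markers had ones below 0, with a median of −0.19, and the medians were 0.0099 for hepatocyte and −0.073 for mesenchymal markers, beside 0.075 in the cluster. Their part in the levels of the cluster was not tested.

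Other miRs of the imprinted domain are given for comparison, with the same libraries. The miRs antisense to *Rtl1* summed to 192209 ± 5686 CPM (SD, n = 5) in WT and 213356 ± 10207 CPM (n = 7) in Mir483Pat-KO, 8 of 10 tested being above 0 and 1 called. Of the 11 tested miRs on the *Meg3* side 8 were above 0 and 0 called, and of the 3 in the *Rian* region 3 were above 0 and 1 called. Their median log2 fold changes were 0.12, 0.17 and 0.15, beside 0.075 in the miR-379/410 cluster. Among all 388 miRs tested, 50.3% were above 0 and 8 (2.06%) were called. Whether these lists differ from the cluster was not tested.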

How the data were processed

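Small RNA libraries were made from total RNA of each liver, and the authors deposited the whole-number counts of reads per mature miR that miRge 3.0 gave, not normalized or pooled. The miR reference and the trimming are not given in the sources used here.

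Counts were tested with edgeR 4.0.16 under R 4.3.3, with filterByExpr (minimum count 10, minimum total count 15), TMM, glmQLFit (legacy = TRUE) and glmQLFTest with genotype alone, and Benjamini-Hochberg adjustment over the 388 miRs kept. The log2 ratio of arms (CPM with prior count 2) was tested with limma 3.58.1 over 97 hairpins. Depth, 658665 to 1211160 counts, puts 3 counts at 2.58 to 4.68 CPM. The code was tested on simulated data. Figures were drawn with matplotlib 3.10.9. Sequences came from RefSeq (GRCm38.p6) and *Mirg* from GENCODE (GRCm38, the build per the labels).

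The members and lists were chosen with earlier results of these data known. Named members were any called, the 10 of highest level, the 5 highest and 5 lowest fold changes at a mean of at least 50 CPM, hairpins of extreme or near-equal arm ratio, and members sharing a seed. Alternatives were other scalings, filters, DESeq2 1.42.0, limma-voom, edgeR's newer dispersion, the replicate block, the animal-number range or library index in the design, and leaving out each library. Fits on the lower animal-number range alone, except for the summed CPM, and the alternatives for miR-154's ratio were added after the data were seen. Of 31 pairs of libraries of the same genotype none matched within sampling noise (chi-square per degree of freedom 5.39 to 45.6). The mRNA libraries were not analysed here.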

Additional observations from a re-analysis of the deposited data

Results flagged for a closer look

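Of the 58 groups of values examined, levels of the named members, arm ratios of the named hairpins and the summed CPM of the cluster in each genotype, 6 held a library that stood apart from the others by Dixon's test, where chance alone marks about 1 in 20. miR-300-3p was at 7157 CPM in WT replicate 1, beside 7960 to 8212 CPM in the other WT libraries. miR-382-5p was at 865 CPM in Mir483Pat-KO replicate 4, beside 714 to 757 CPM. miR-412-5p was at 98.7 CPM in WT replicate 5, beside 42.8 to 52.4 CPM. The log2 5p/3p ratio of miR-382 was 1.77 in WT replicate 3, beside 1.28 to 1.36. That of miR-380 was −7.24 in Mir483Pat-KO replicate 3, beside −6.53 to −6.12, and that of miR-543 was −6.80 in Mir483Pat-KO replicate 1, beside −4.73 to −3.96. None of these concerns miR-154.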

How the results depend on the processing

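The number of members called, 1 by edgeR, was 0 with library size alone, with no filter, with at least 10 counts in every library, with at least 1 CPM in at least 5 libraries, with the replicate block, with the animal-number range as a factor, with the library index as a covariate and in the lower animal-number range alone. It was 5 by DESeq2, 3 (of 18, or 4.64%, among all miRs) at an adjusted p under 0.1, and 0 to 1 with 1 library left out, where miR-495-3p was the member called without WT replicate 5. The fold change of miR-154-3p kept its direction in every fit. The median over the members, 0.075, was 0.0062 with library size alone, beside −0.063 over all miRs. The log2 ratio of the summed CPM was 0.14. It lay between 0.068 and 0.15 with other scalings, without miR-411-5p or in the lower range alone. With 1 library left out it lay between 0.11 and 0.15. The number of arm ratios called in the cluster, 1, was 0 with the replicate block, with the index and in the lower range, and 0 to 1 with 1 library left out. The ratio difference of miR-154 was −0.71 with the replicate block (adjusted p = 0.492, limma), −0.74 with the index, −0.60 in the lower range and −0.75 to −0.62 with 1 library left out. Replicate numbers are shared by different fetuses. Same-numbered fetuses' deviations correlated at −0.24 to 0.23, and 1 of 5 WT libraries correlated best with its own number, so they were not taken as pairs. The block left 3 of all 388 miRs called. The log2 fold change of miR-410-3p, 0.0011, turned to −0.013 with RLE scaling and by DESeq2, −0.070 with library size alone, −0.022 with no filter, −0.019 and −0.023 with the count and CPM filters, −0.050 with the index, −0.026 in the lower range, and lay between −0.043 and 0.0090 with 1 library left out. That of miR-369-3p turned to −0.0020 with library size alone, a scaling that moved the median of all miRs to −0.063. With the index the median over the members turned to −0.068, and reversed members were miR-541-5p (−0.060), miR-409-3p (−0.12), miR-300-3p (−0.16), miR-381-3p (−0.26), miR-412-5p (−0.83), miR-377-3p (0.12) and miR-668-3p (0.051). The cause of these changes was not tested. Of the 204 fold changes of the 17 named members under these settings, those with 1 library left out not counted, 176 kept their direction and their side of the threshold. The filter of at least 10 counts removed miR-483, which has no value there. Members under 10 CPM are limited by depth.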

Other observations

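The first bases of the more and less abundant arms were set side by side for the 29 hairpins of the cluster with both sequences and at least 120 counts. The more abundant arm began with U in 16 of them and the less abundant arm in 9. With U or A counted together the numbers were 24 and 23.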
